A study of Mus musculus with 8 samples.

Results

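The genes described here are 10 core components of insulin signalling, out of 19348 genes in the deposited tables. The choice was made by name for their place in the pathway, with earlier results of these data known. They are the insulin receptor gene Insr, the receptor substrate genes Irs1 and Irs2, Pik3r1 and Pik3ca, which encode a regulatory and a catalytic subunit of phosphoinositide 3-kinase (PI3K), the kinase genes Akt1 and Akt2, the phosphodiesterase gene Pde3b, and the transcription factor genes Foxo1 and Foxo3. They were measured by RNA-seq in liver and in epididymal white adipose tissue (eWAT), the fat pad beside the epididymis, of male C57BL/6 mice aged 12 weeks on a normal diet that had been fasted for 16 h. Each tissue had 2 libraries labelled Crtc1-/- and 2 labelled Crtc1+/+, 8 in all, and the comparison asks how the transcripts of these tissues differ without Crtc1, a coactivator of the cAMP-responsive factor CREB. The Crtc1-/- mice carry a whole-body CRISPR/Cas9 deletion aimed at exons 2 to 4 and were littermates of the Crtc1+/+ mice, so the gene was targeted in every tissue of the mouse and not in liver or fat alone.

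Insulin binding makes its receptor phosphorylate IRS proteins, which recruit PI3K to the membrane. The lipid that PI3K makes brings AKT kinases to the membrane, where other kinases activate them. In adipocytes active AKT moves glucose transporters to the surface and, through PDE3B, lowers cAMP and restrains lipolysis, while in hepatocytes it keeps FoxO factors out of the nucleus and so holds down the genes of glucose production. In a fasted mouse insulin is low and FoxO factors are active, and much of this regulation acts on proteins, which these libraries did not measure.

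Libraries held between 16560070 and 19721464 counts. Levels are given as CPM (counts scaled to library totals, here with TMM factors over the 8 libraries), and levels of different genes are compared only as FPKM, which are per transcript length. Among eWAT libraries, Crtc1 itself had 21.8 and 22.3 CPM where the label was Crtc1+/+ and 34.3 and 22.8 CPM where it was Crtc1-/-. Among liver libraries it had 18.03 and 15.3 against 34.2 and 27.4 CPM. It was thus not lower in the libraries labelled Crtc1-/- (log2 fold change 0.48, adjusted p = 0.396 in eWAT and 0.89, adjusted p = 0.184 in liver, edgeR's quasi-likelihood test). The counts are per gene and do not resolve the targeted exons, so they do not check the deletion, and every mention of Crtc1-/- or Crtc1+/+ below means libraries that carry that label.

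The eWAT libraries differed in tissue makeup along with the labelled genotype. The 22 epididymis markers held 8.08% and 9.48% of the counts in Crtc1+/+ eWAT and 0.00378% and 0.00291% in Crtc1-/- eWAT, where 7 and 6 of them were at 0. The 12 adipocyte markers, led by Fabp4, held 0.261% and 0.418% against 4.20% and 2.02%, with none at 0 in eWAT, and the 10 endothelial markers 0.0435% and 0.0416% against 0.579% and 0.328%. The 13 hepatocyte markers held 11.7% in Crtc1-/- eWAT replicate 2, against 0.145% to 0.746% in the other eWAT libraries and 21.9% to 25.3% in liver. The second of the eWAT libraries labelled Crtc1-/- therefore stood apart in hepatocyte transcripts, and both eWAT libraries labelled Crtc1+/+ in epididymis transcripts. In such bulk libraries, fewer cells of a type and less RNA per cell cannot be told apart. The part of these cell types in the results for eWAT was not tested.

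**Figure D1:**
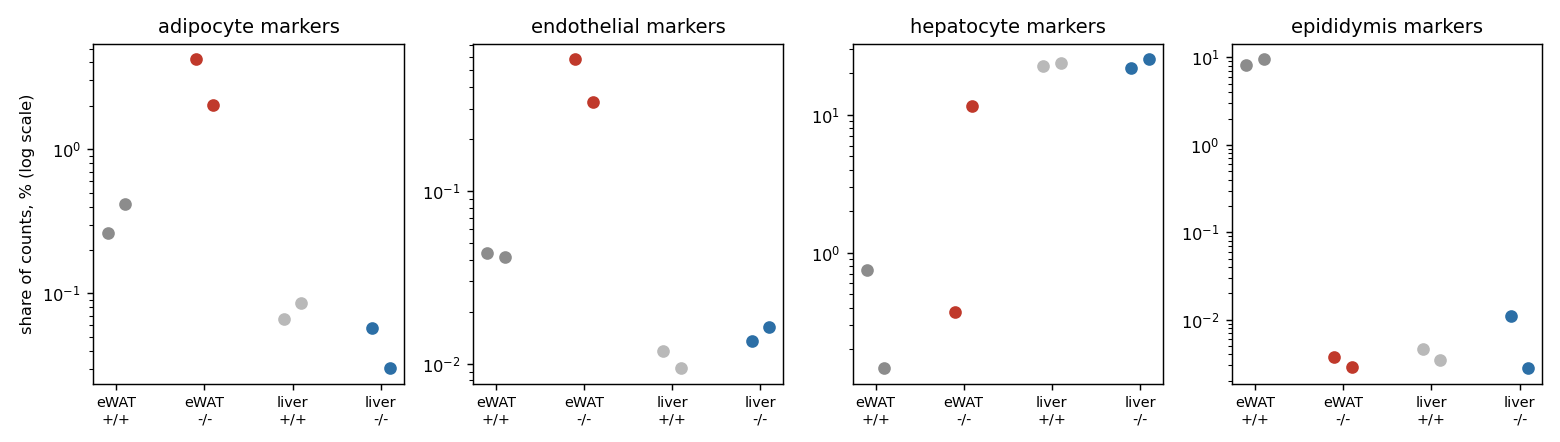
Share of all counts (%, log axis) held by the adipocyte, endothelial, hepatocyte and epididymis marker lists in each of the 8 libraries, by tissue and labelled genotype, with replicate 1 on the left of each pair. Epididymis markers are high in both eWAT libraries labelled Crtc1+/+, adipocyte and endothelial markers are high in both eWAT libraries labelled Crtc1-/-, and hepatocyte markers reach 11.7% in 1 of the latter.

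Of the 10 genes, Akt2 and Foxo1 rose in Crtc1-/- eWAT, Akt2 by 2.47 on the log2 scale (standard error 0.33) and Foxo1 by 1.46 (standard error 0.29), and none passed the test in liver. The 2 called in eWAT at an adjusted p under 0.05 compare with 12.2% of all 15391 genes tested there, of which 6.65% were called higher and 5.54% lower. At the study's threshold for differential expression (a change of more than 1 on the log2 scale in either direction and an unadjusted p below 0.01) Irs1 joined them, making 3 of 10 against 15.9% of all genes. At an unadjusted p under 0.05, 4 of the 10 passed, against 33.3% of all genes. All 10 passed the filter on low counts in each comparison. The libraries of the 2 labelled genotypes did not overlap in eWAT for 5 genes (Irs1, Akt1, Akt2, Pde3b and Foxo1), each higher in Crtc1-/-, where 34.1% of all genes were separated in that direction. The median log2 fold change of the 10 was 0.77, beside -0.05 over all genes tested.

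**Figure D2:**
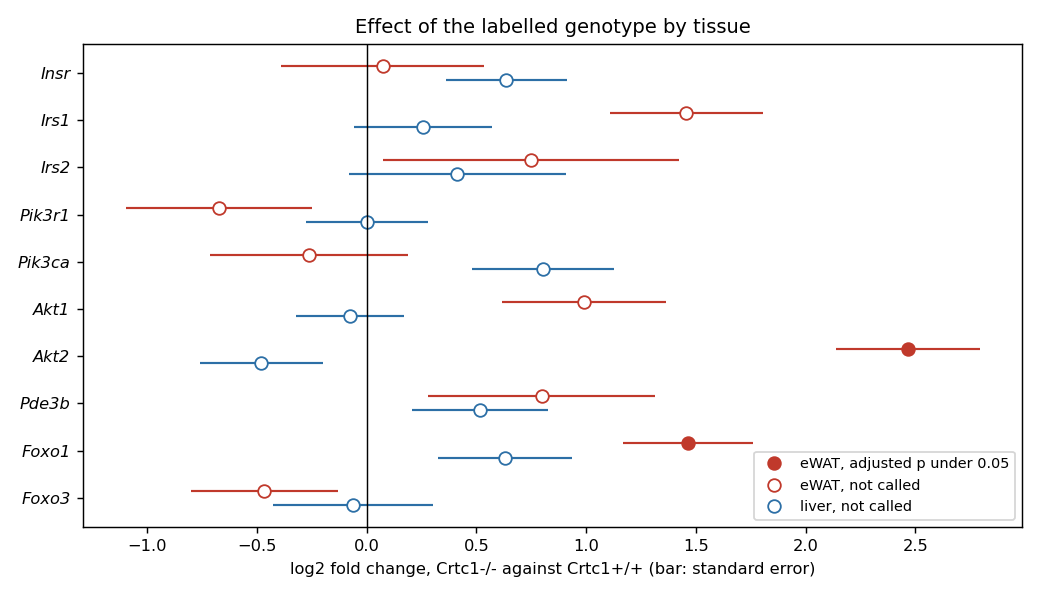
Log2 fold change of each of the 10 genes, labelled Crtc1-/- against labelled Crtc1+/+, in eWAT (red) and liver (blue), with bars for the standard error from edgeR and filled points for an adjusted p under 0.05. Only Akt2 (2.47) and Foxo1 (1.46) in eWAT are filled, and the liver values lie between -0.48 and 0.80.

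Akt2, which encodes the AKT isoform with the main role in insulin-stimulated glucose uptake, showed the largest difference of the 10 in eWAT. Its level was 78.6 and 71.1 CPM in Crtc1+/+ eWAT and 372 and 411 CPM in Crtc1-/- eWAT. Replicates of a genotype lay close together and the 2 genotypes were far apart, with a fold of 5.52 (adjusted p = 0.0214, edgeR's quasi-likelihood test). Leaving out the library with hepatocyte transcripts gave a log2 fold change of 2.47 (adjusted p = 0.00905). The liver libraries, in contrast, were at 204 and 166 CPM when labelled Crtc1+/+ and 157 and 107 CPM when labelled Crtc1-/-. There Akt2 was lower in both Crtc1-/- libraries, with a change of -0.48 (standard error 0.28) that missed the threshold (adjusted p = 0.396, same test). The call in eWAT was lost without either Crtc1+/+ library, at a log2 fold change of 2.54 (adjusted p = 0.159) without replicate 1 and 2.43 (adjusted p = 0.270) without replicate 2, and with those libraries left out edgeR called 0 genes of the whole table, while 3436 and 2565 had an unadjusted p under 0.05. With the replicate number as a block the adjusted p was 0.0559. Over all settings the log2 fold change lay between 2.06 and 2.54 and the adjusted p between 5.27e-19 and 0.270.

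Akt1, the more widely expressed isoform, had no call in either tissue. It was at 97.2 and 87.4 CPM in Crtc1+/+ eWAT and at 203 and 139 CPM in Crtc1-/- eWAT. The groups did not overlap, but the log2 fold change of 0.99 (standard error 0.37) did not pass the test (adjusted p = 0.142, edgeR's quasi-likelihood test). DESeq2 brought it past the threshold (adjusted p = 0.0373). The other settings with every library kept did not (adjusted p = 0.0683 to 0.347). With a library left out the log2 fold change was 0.57 to 1.29. In liver Akt1 was at 117 and 100 CPM against 97.2 and 107 CPM, and the groups overlapped (log2 fold change -0.08, standard error 0.25).

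Foxo1, the forkhead factor that AKT holds in the cytoplasm, was at 23.2 and 29.5 CPM in Crtc1+/+ eWAT and at 57.9 and 81.2 CPM in Crtc1-/- eWAT. Both Crtc1-/- libraries lay above both Crtc1+/+ libraries, and the fold of 2.76 passed the test narrowly (adjusted p = 0.0419, edgeR's quasi-likelihood test). Without the library with hepatocyte transcripts the log2 fold change was 1.28 (adjusted p = 0.0880), and without Crtc1+/+ replicate 1 or 2 it was 1.32 (adjusted p = 0.225) or 1.68 (adjusted p = 0.274). The call was also lost with upper-quartile scaling (adjusted p = 0.0527), library-size scaling (0.0841), no filter (0.0519), limma on log2(FPKM + 1) (0.0522) and the replicate number as a block (0.0632), within a range of 0.000413 to 0.274 over all settings, though Foxo1 was higher in Crtc1-/- eWAT in each. Library-size scaling moved the median of all genes in eWAT from -0.05 to -0.35, and Foxo1 from 1.46 to 1.15 and Akt2 from 2.47 to 2.16 with it. In liver Foxo1 was at 28.5 and 50.7 CPM against 63.8 and 58.1 CPM. It was again higher in both Crtc1-/- libraries, a log2 difference of 0.63 (standard error 0.30, adjusted p = 0.316).

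Foxo3, a related forkhead factor, had no call in either tissue. Its level was 36.3 and 52.9 CPM in Crtc1+/+ eWAT and 24.4 and 37.6 CPM in Crtc1-/- eWAT, where the groups overlapped (log2 fold change -0.47, standard error 0.34, adjusted p = 0.364). In liver it was at 15.7 and 35.2 CPM against 26.0 and 22.5 CPM, with the Crtc1-/- libraries inside the range of the others.

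Irs1, whose product docks PI3K at the receptor, was at 7.48 and 7.04 CPM in Crtc1+/+ eWAT and 20.0 and 17.4 CPM in Crtc1-/- eWAT. The groups were well apart, and the log2 fold change of 1.46 (standard error 0.35) lay just outside the threshold over all genes (adjusted p = 0.0590, edgeR's quasi-likelihood test). DESeq2 (adjusted p = 0.000798), no filter (0.0483), removal of marker genes (0.0453) and a fit of all 8 libraries (0.0174) brought it past the threshold. It stayed outside with upper-quartile scaling (adjusted p = 0.0806), library-size scaling (0.137) and a mean count of at least 50 (0.0592). The same held for both limma fits (0.0512 and 0.0603) and the replicate number as a block (0.0792). With a library left out the log2 fold change was 1.24 to 1.62. In liver Irs1 was at 17.9 and 15.5 CPM against 15.05 and 24.5 CPM, where the Crtc1+/+ libraries fell inside the range of the Crtc1-/- libraries.

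Irs2, the substrate with a large part in the liver's response to insulin, was low there, at 0.949 and 0.978 CPM in Crtc1+/+ liver and 1.14 and 1.42 CPM in Crtc1-/- liver. These levels rest on 12, 12, 14 and 16 counts, with exact 95% Poisson intervals (counting error only) of 6.20 to 21.0 for 12 counts and 9.15 to 26.0 for 16 counts, so the liver difference (log2 fold change 0.41, standard error 0.49) was not detectable at this depth. In eWAT Irs2 was at 2.999 and 7.01 CPM against 4.34 and 12.2 CPM, from 93 to 258 counts. Replicates differed there by more than the genotypes did (log2 fold change 0.75, standard error 0.67, adjusted p = 0.461).

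Insr, at the head of the pathway, was at 20.0 and 36.3 CPM in Crtc1+/+ eWAT and at 18.8 and 38.7 CPM in Crtc1-/- eWAT. The 2 genotypes covered the same range (log2 fold change 0.07, standard error 0.46). In liver it was at 24.4 and 33.3 CPM against 39.7 and 49.3 CPM, higher in both Crtc1-/- libraries, a log2 difference of 0.64 (standard error 0.28) that did not pass the test (adjusted p = 0.277, edgeR's quasi-likelihood test).

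The PI3K subunits showed no call in either tissue. Pik3r1, for the regulatory subunit p85-alpha, was at 21.0 and 40.1 CPM in Crtc1+/+ eWAT and 14.7 and 22.1 CPM in Crtc1-/- eWAT (log2 fold change -0.67, standard error 0.42, adjusted p = 0.306). In liver it was at 26.2 and 37.1 CPM against 28.5 and 34.5 CPM, a log2 difference of 0.00 (standard error 0.28). Both sets of replicates overlapped. Pik3ca, for the catalytic subunit p110-alpha, was at 11.3 and 20.9 against 9.75 and 16.1 CPM in eWAT, where the groups overlapped. In liver it was at 5.69 and 7.49 against 10.2 and 12.6 CPM, apart but not past the test (log2 fold change 0.80, standard error 0.32, adjusted p = 0.260, edgeR's quasi-likelihood test). Pik3ca overlaps Kcnmb3 in the annotation, and reads shared by them cannot be told apart in these counts. Irs2, Akt1 and Foxo3 overlap noncoding genes that the count table does not list.

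Pde3b, whose product breaks down cAMP when insulin acts on adipocytes, was at 10.8 and 28.6 CPM in Crtc1+/+ eWAT and 30.3 and 34.7 CPM in Crtc1-/- eWAT. The groups stood apart by little, since Crtc1+/+ replicate 2 reached 28.6 CPM, and the log2 fold change of 0.80 (standard error 0.52) did not pass (adjusted p = 0.320, edgeR's quasi-likelihood test). Leaving out Crtc1+/+ replicate 1 or 2 moved it to 0.27 or 1.69. In liver it was at 13.7 and 17.7 CPM against 17.6 and 26.9 CPM, just overlapping (log2 fold change 0.52, standard error 0.31, adjusted p = 0.406).

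**Figure D3:**
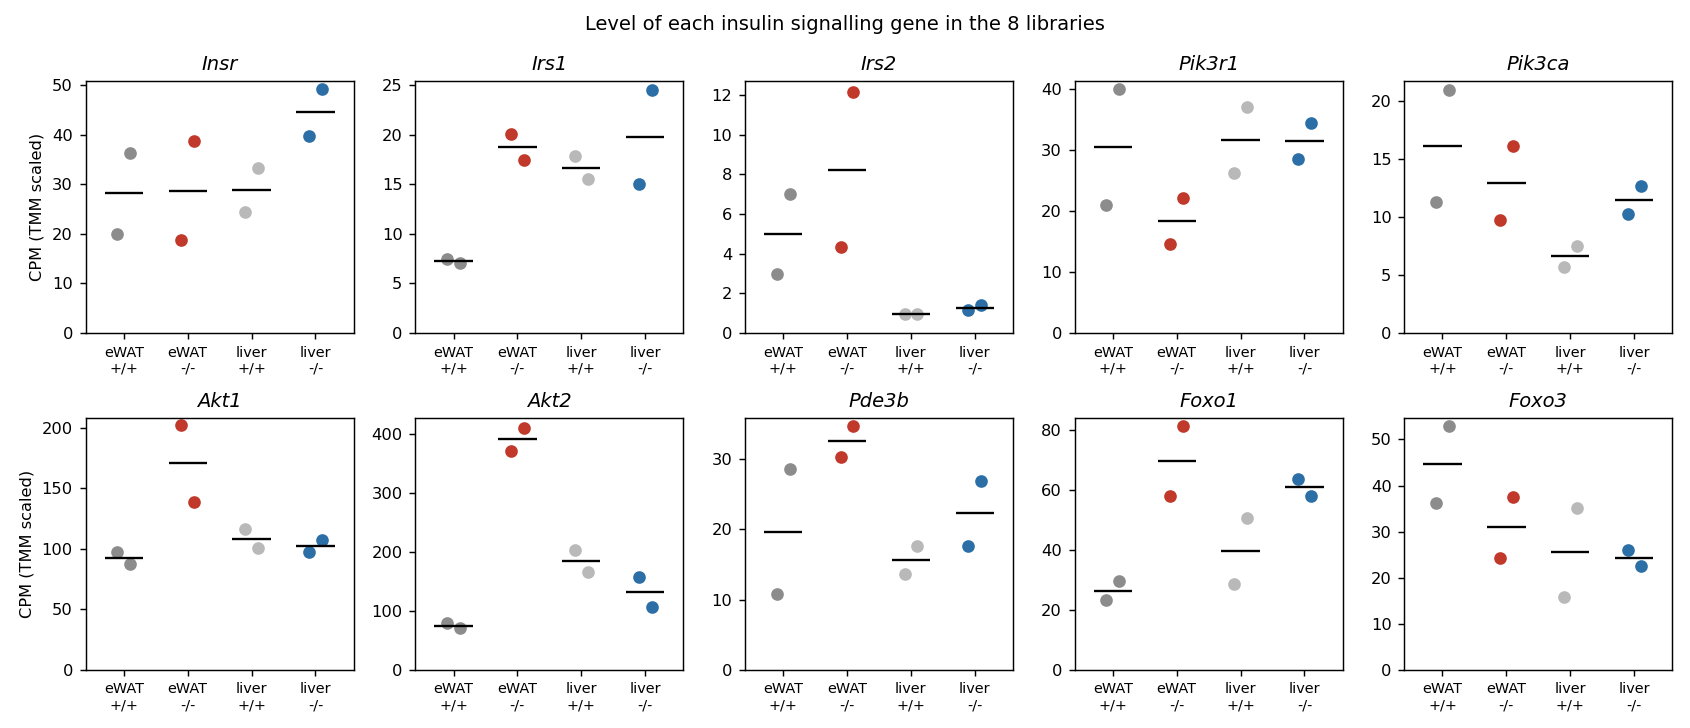
Level of each of the 10 genes in the 8 libraries, in CPM on TMM-scaled totals, by tissue and labelled genotype, with replicate 1 on the left of each pair and a bar at the mean of the 2 libraries. Each panel has its own axis from 0, and Akt2 in eWAT labelled Crtc1-/- (372 and 411 CPM) stands above all 6 other libraries.

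In liver, 0 of the 10 genes were called by edgeR's quasi-likelihood test, against 0.0854% of the 11707 genes tested. DESeq2 and limma called 0 as well, and 2 of the 10 (Insr and Pik3ca) had an unadjusted p under 0.05, against 17.3% of all genes. None reached the study's threshold, which 4.27% of all genes did. Groups did not overlap for 4 genes higher in Crtc1-/- (Insr, Irs2, Pik3ca and Foxo1), against 25.2% of all genes, and for 1 lower (Akt2), against 27.3%. The median log2 fold change was 0.33, beside 0.00 over all genes tested.

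The difference between the tissues was tested as an interaction in a fit of all 8 libraries. Akt2 alone of the 10 passed, with a difference (eWAT effect minus liver effect) of 2.86 on the log2 scale (standard error 0.46, adjusted p = 0.0177, edgeR's quasi-likelihood test), where 6.94% of 15587 genes were called. Its direction was higher in 2 of 2 Crtc1-/- libraries in eWAT and lower in 2 of 2 in liver. The call was lost with any 1 of the 4 liver libraries or of the 2 Crtc1+/+ eWAT libraries left out, at values of 2.62 to 3.17 (adjusted p = 0.0521 to 0.0924). For Irs1 the difference was 1.11 (standard error 0.40, adjusted p = 0.140), for Akt1 0.96 (standard error 0.42, adjusted p = 0.193) and for Pik3ca -1.12 (standard error 0.56, adjusted p = 0.243). Foxo1, called in eWAT and not in liver, did not differ between tissues beyond the threshold (0.77, standard error 0.46, adjusted p = 0.319).

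The upstream sequences of the 3 genes with the largest rise in eWAT and of Akt1 are shown because Crtc1 works through CREB, which binds the CRE, and because FoxO factors are among the genes described. The sequences are the 250 bases before a RefSeq start site (GRCm38.p6, gene strand, 5′ to 3′), with capitals for TGACG (the core of the CRE) or GTAAACA (a forkhead motif) on either strand.
Akt2, chr7:27591302-27591551, plus strand: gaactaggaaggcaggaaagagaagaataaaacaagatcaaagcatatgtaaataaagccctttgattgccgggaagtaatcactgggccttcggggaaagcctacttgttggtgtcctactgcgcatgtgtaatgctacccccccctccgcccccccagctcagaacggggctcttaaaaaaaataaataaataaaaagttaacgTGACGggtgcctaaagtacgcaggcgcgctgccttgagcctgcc
Foxo1, chr3:52268087-52268336, plus strand: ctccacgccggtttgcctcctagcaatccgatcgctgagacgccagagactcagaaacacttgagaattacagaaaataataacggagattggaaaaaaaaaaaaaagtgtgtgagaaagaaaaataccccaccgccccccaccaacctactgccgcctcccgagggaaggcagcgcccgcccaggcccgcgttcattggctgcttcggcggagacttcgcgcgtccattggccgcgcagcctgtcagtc
Irs1, chr1:82291440-82291689, minus strand: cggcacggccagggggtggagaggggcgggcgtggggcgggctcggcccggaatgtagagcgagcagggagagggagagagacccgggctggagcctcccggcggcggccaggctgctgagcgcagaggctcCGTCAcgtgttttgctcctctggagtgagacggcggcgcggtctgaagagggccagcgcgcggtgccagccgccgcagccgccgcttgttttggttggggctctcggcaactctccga
Akt1, chr12:112674885-112675134, minus strand: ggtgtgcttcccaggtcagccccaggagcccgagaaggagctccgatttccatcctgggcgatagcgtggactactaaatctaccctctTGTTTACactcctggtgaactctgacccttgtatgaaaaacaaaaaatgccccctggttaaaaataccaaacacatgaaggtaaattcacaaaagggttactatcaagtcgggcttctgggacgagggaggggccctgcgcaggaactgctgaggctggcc

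Motifs were searched in windows of 300 bases, from 250 before to 50 after each RefSeq start, on both strands. Windows were given for 8 of the 10 genes, 13 windows in all. TGACG occurred in 5 of the 13, namely Irs1, Foxo3, 2 of 4 Akt2 windows and 1 of 2 Pik3r1 windows, and in 20.8% of all 32851 windows. The full palindromic CRE TGACGTCA, which holds TGACG on both strands, was in none of the 13 and in 1.79% of all windows. GTAAACA was in 1 of the 13 (Akt1) and in 3.65% of all. The Foxo1 window held none of these motifs, the Irs1 sequence has TGACG read from the other strand, and the Akt2 sequence has it on the gene strand. These are matches of letters in the windows and carry no measurement of binding.

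Within each library, the ratio of paralogs in FPKM does not depend on the scaling between libraries. Akt2 stood at 0.673 and 0.671 of Akt1 in Crtc1+/+ eWAT and at 1.54 and 2.49 in Crtc1-/- eWAT, so Akt1 was the more abundant isoform in the former and Akt2 in the latter. In liver the ratio was 1.45 and 1.37 against 1.35 and 0.835. Replicate spread is given here as the root of the summed variances of the 2 groups. The eWAT difference of 1.54 on the log2 scale exceeded this spread (0.49), and the liver difference of -0.41 did not exceed its own (0.50). Foxo3 stood at 1.26 and 1.45 of Foxo1 in Crtc1+/+ eWAT and at 0.340 and 0.374 in Crtc1-/- eWAT. The log2 difference was -1.92, against a spread of 0.17 by the same measure. In liver the same ratio was 0.445 and 0.560 against 0.329 and 0.313, also lower in both Crtc1-/- libraries.

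Pik3r1 exceeded Pik3ca in every library, by 4.95 and 5.57 times in Crtc1+/+ liver and 3.18 and 3.23 times in Crtc1-/- liver. In eWAT the ratio was 2.15 and 2.12 against 1.73 and 1.55, also lower in both Crtc1-/- libraries. Irs2 was at 0.126 to 0.176 of Irs1 in the 4 liver libraries and at 0.507 to 2.33 in eWAT, with no separation by genotype. With 2 libraries against 2, the smallest p an exact permutation test allows is 0.333, and no ratio was tested by any method.

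**Figure D4:**
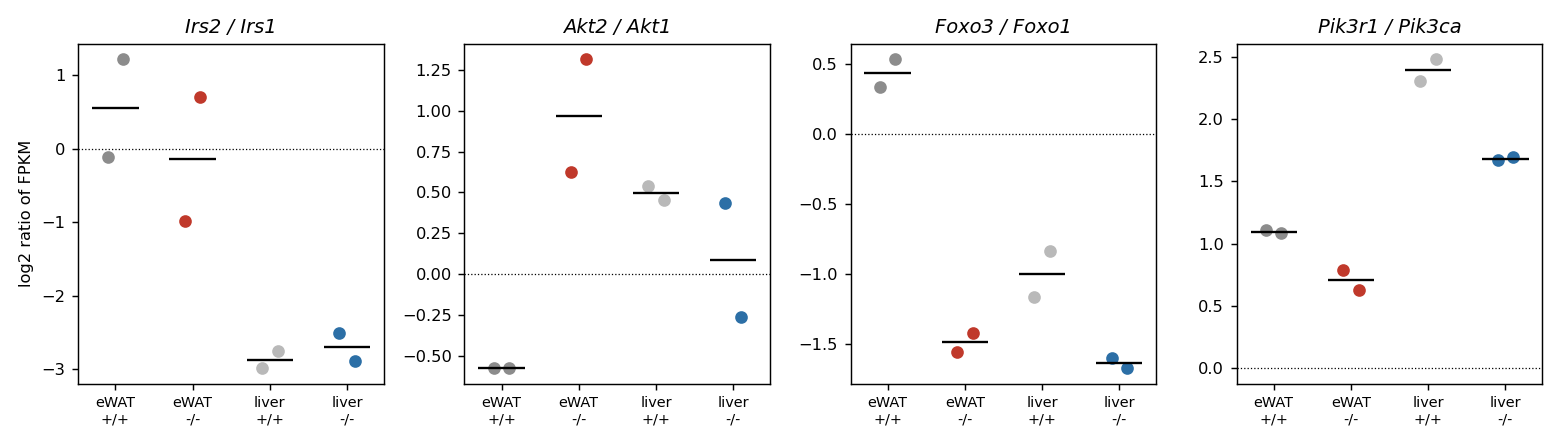
Log2 ratio of FPKM within each library for Irs2 to Irs1, Akt2 to Akt1, Foxo3 to Foxo1 and Pik3r1 to Pik3ca, by tissue and labelled genotype, with replicate 1 on the left, a bar at the mean of the 2 libraries and a dotted line where the genes are equal. In eWAT the Akt2 to Akt1 ratio passes from below to above the line and the Foxo3 to Foxo1 ratio from above to below it.

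As FPKM, the 2 AKT genes were the most abundant of the 10 in all 8 libraries, with 63.7% to 88.1% of their summed FPKM. Akt2 was at 46.9 and 41.1 FPKM in Crtc1+/+ eWAT, 222 and 175 FPKM in Crtc1-/- eWAT, 46.0 and 36.4 FPKM in Crtc1+/+ liver and 36.1 and 25.9 FPKM in Crtc1-/- liver. Irs2 was the least abundant of the 10 in all 4 liver libraries, at 0.160 to 0.250 FPKM, and held the eighth to the tenth place in eWAT. Foxo1 was in the third place in both eWAT libraries labelled Crtc1-/- and in all 4 liver libraries. In Crtc1+/+ eWAT that place was held by Foxo3, at 9.18 and 13.1 FPKM against 7.27 and 9.04 FPKM for Foxo1.

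Between tissues, 4 of the 10 genes differed in the Crtc1+/+ libraries, where 54.9% of all genes did, and 2 of 10 in the Crtc1-/- libraries, where 27.8% did. Groups did not overlap for 6 of 10 genes in each case, against 82.6% and 71.3% of all genes. Irs2 was higher in eWAT than in liver by 2.36 (standard error 0.67, adjusted p = 0.0233) on the log2 scale in Crtc1+/+ and by 2.67 (standard error 0.67, adjusted p = 0.0278) in Crtc1-/-. Akt2 had opposite signs, at -1.30 (standard error 0.32, adjusted p = 0.0146) in Crtc1+/+ and 1.56 (standard error 0.33, adjusted p = 0.0156) in Crtc1-/-, all from edgeR's quasi-likelihood test. In Crtc1+/+, Irs1 was also lower in eWAT (-1.20, with -2.52 to 0.20 over all settings) and Pik3ca higher (1.28, with -0.09 to 2.68). These values depend on the scaling, since TMM factors were 1.204 to 1.69 in eWAT and 0.627 to 0.680 in liver. Scaling by library size alone moved the median of all genes in Crtc1+/+ from 0.61 to 2 and turned Akt2 (0.10) and Irs1 (0.20), while Akt2 in Crtc1-/- stayed higher in eWAT under each setting tried. Irs2 had no negative value, but limma on FPKM put it at 0.04 and 0.01 in Crtc1+/+, and limma did not call it in either genotype. With edgeR its call in Crtc1+/+ was lost without Crtc1+/+ eWAT replicate 2 (1.63, adjusted p = 0.116) or Crtc1+/+ liver replicate 1 (2.34, adjusted p = 0.109) or 2 (2.38, adjusted p = 0.103). Its call in Crtc1-/- was lost without Crtc1-/- eWAT replicate 2 (1.74, adjusted p = 0.0705) or any of the liver libraries (2.51 to 2.84, adjusted p = 0.0530 to 0.136). The call of Akt2 in Crtc1+/+ was lost with both limma fits (-0.55 and -0.57, adjusted p = 0.0719 and 0.0683) and without Crtc1+/+ liver replicate 1 or either Crtc1+/+ eWAT library (-1.16 to -1.39, adjusted p = 0.0610 to 0.0887), and that in Crtc1-/- without Crtc1-/- liver replicate 2 (1.31, adjusted p = 0.0839).

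The order of the 4 groups by mean CPM was led by Crtc1-/- eWAT for 5 genes (Irs2, Akt1, Akt2, Pde3b and Foxo1), by Crtc1+/+ eWAT for Pik3ca and Foxo3, by Crtc1-/- liver for Insr and Irs1, and by Crtc1+/+ liver for Pik3r1. For Akt2 each step of the order, eWAT Crtc1-/-, liver Crtc1+/+, liver Crtc1-/-, eWAT Crtc1+/+, lay between libraries that did not overlap. For Pik3r1 and Foxo3 no neighbouring groups were apart. Irs1 was set off only at the foot, by Crtc1+/+ eWAT, and Pik3ca only at the foot, by Crtc1+/+ liver. Irs2 separated the tissues and, within liver, the genotypes, the latter by only 12 and 12 against 14 and 16 counts. That liver difference was not detectable at this depth. By FPKM an eWAT group led for all 10 genes, so the order across tissues depends on the scale used.

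Within each group, most of the 10 genes differed between replicates in the same direction. Between 7 and 8 of the 10 genes were higher in the library numbered 2 than in that numbered 1 in each group, with median log2 gaps of 0.70 and 0.54 in Crtc1+/+ eWAT and Crtc1-/- and of 0.38 and 0.29 in liver. The gaps were 1.40 for Pde3b, 1.22 for Irs2 and 0.93 for Pik3r1 in Crtc1+/+ eWAT, and -0.14 for Akt2 and -0.15 for Akt1. The transcript length implied by counts and FPKM was 2359 nt for Akt1 and 2836 nt for Akt2, the shortest of the 10, and 3868 nt (Irs2) to 9241 nt (Insr) for the others. Over all genes with a mean of at least 5 CPM, the median gap in Crtc1+/+ eWAT was 0.40 for genes over 4000 nt, 0.06 for 2000 to 4000 nt and -0.23 for shorter genes. In Crtc1-/- eWAT these medians were 0.25, 0.07 and 0.05. They were 0.13, 0.02 and -0.11 in Crtc1+/+ liver and 0.10, -0.08 and -0.08 in Crtc1-/- liver. The labelled genotype effect in eWAT had medians of -0.26, -0.03 and 0.17 in the same length classes. Of the 10 genes, those over 4000 nt went both ways in eWAT. Positive values were those of Foxo1 (5404 nt, 1.46), Irs1 (9010 nt, 1.46), Pde3b (5171 nt, 0.80) and Insr (9241 nt, 0.07). Negative values were those of Pik3r1 (5843 nt, -0.67), Foxo3 (6690 nt, -0.47) and Pik3ca (6647 nt, -0.26). The part of transcript length in these results was not tested.

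For each of the 10 genes, the gene with the most similar profile over the 8 libraries was found among 11567 genes tested in both tissues, by the root mean square difference of log2 CPM after centring. The nearest profile to Akt2 was Rapgef1 at 0.191, where Akt2 itself varied by 0.878 about its mean, and the nearest to Foxo1 was Mrc1, a macrophage marker, at 0.217 (own variation 0.604). Pik3r1 lay nearest Rab18 (0.077), Akt1 nearest Taldo1 (0.083), Pik3ca nearest Pkn2 (0.134), Insr nearest Rnf214 (0.146), Irs1 nearest Marveld1 (0.161), Foxo3 nearest Prdm2 (0.162), Pde3b nearest Elmod2 (0.231) and Irs2 nearest Setd7 (0.267). Among the 10 themselves the closest pairs were Insr with Pik3r1 (0.345) and Pik3ca with Foxo3 (0.363), and the farthest apart were Irs1 and Irs2 (1.40). Akt1 and Akt2 differed by 0.611 and Foxo1 and Foxo3 by 0.814. In GRCm38, Akt2 (NCBI Gene 11652) lies on chromosome 7, 27591552 to 27640826, plus strand. Foxo1 (NCBI Gene 56458) lies on chromosome 3, 52268337 to 52350109, plus strand, and Irs1 (NCBI Gene 16367) on chromosome 1, 82233105 to 82291439, minus strand.

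Around these 10 genes, 89 others were listed by role, and 18 of them were called in eWAT (12 higher and 6 lower, 20.2%), beside the 12.2% of all genes given above. Their median log2 fold change was 0.15, and 0 were called without either Crtc1+/+ eWAT library. In liver 81 were tested and 0 called by edgeR's quasi-likelihood test. There 9 of the 81 had an unadjusted p under 0.05, where 17.3% of all genes did, and DESeq2 called 2 and limma 0. The study's threshold was passed by 2 of the 81, where 4.27% of all genes passed it, Sgk2 (-1.18, standard error 0.28, adjusted p = 0.134) and Cited2 (-1.22, standard error 0.30, adjusted p = 0.134), both lower in Crtc1-/-. Cited2 was named after its value was seen. The values below are log2 fold changes, labelled Crtc1-/- against labelled Crtc1+/+, and calls are by edgeR's quasi-likelihood test. Beside the calls in eWAT stand the differences in epididymis, adipocyte, endothelial and hepatocyte transcripts given above. Of the other marker lists, 10 of 10 macrophage markers were higher in Crtc1-/- eWAT (median log2 fold change 2.15, 3 called), at 0.171% and 0.0735% of counts against 0.0457% and 0.0230%. For lymphocytes 0 of 7 tested were higher (median -1.06, 0 called), for smooth muscle 0 of 5 (median -1.14, 1 called), for fibroblasts 6 of 8 (median 0.66, 2 called) and for mesothelium 3 of 5 (median 0.80, 1 called). The part of these cell types was not tested.

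Among 14 receptors and adaptors, 3 rose and 1 fell in eWAT. Irs3, a rodent receptor substrate of adipocytes, was at 4.10 and 3.71 CPM in Crtc1+/+ and 74.3 and 45.9 CPM in Crtc1-/- and rose by 4.05 (standard error 0.44, adjusted p = 0.0170). Sh2b2, an adaptor of the insulin receptor, rose by 2.52 (adjusted p = 0.0433). Igf1r, the receptor for insulin-like growth factor 1, was at 62.6 and 92.5 CPM against 15.6 and 15.3 CPM and fell by 2.24 on the log2 scale (standard error 0.33, adjusted p = 0.0259).

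Of 9 inhibitors of the receptor, 2 rose and 2 fell. Grb10, an adaptor that blocks the receptor kinase, was at 12.5 and 14.8 CPM against 49.5 and 63.2 CPM and rose by 2.11 (adjusted p = 0.0215), and Socs3, a cytokine-induced inhibitor, rose by 2.23 (adjusted p = 0.0447). Enpp1, a membrane phosphodiesterase that binds the receptor, was at 101 and 187 CPM against 1.90 and 6.17 CPM, the largest fall of the 89 among those called (-5.13, standard error 0.71, adjusted p = 0.0226). The receptor phosphatase gene Ptprf fell by 1.71 on the log2 scale (adjusted p = 0.0373). No direction was shared within this role.

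The 10 other PI3K and lipid kinase genes had no call. The largest change among the more abundant of them was Pik3c2a at -1.90 (standard error 0.78, adjusted p = 0.167), for a class II kinase. Of 6 lipid phosphatases, Inpp5d, for the SHIP1 phosphatase of blood cells, was at 92.8 and 109 CPM against 28.7 and 19.0 CPM and fell by 1.98 on the log2 scale (adjusted p = 0.0382). Inppl1, for the related SHIP2, was at 37.1 and 35.8 CPM against 65.8 and 52.8 CPM in eWAT (0.80, adjusted p = 0.145) and at 58.5 and 42.7 against 29.3 and 27.1 CPM in liver (-0.84, adjusted p = 0.198), apart by genotype in both tissues and in opposite directions.

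Among 10 genes of AKT activation, Sgk1, a relative of AKT that PI3K also activates, was called and rose by 2.38 (adjusted p = 0.0270). Sgk2 was at 0.742 and 0.103 CPM in Crtc1+/+ and at 0.161 and 18.3 CPM in Crtc1-/- eWAT, with the high value in the library with hepatocyte transcripts, and at 114.8 and 93.3 against 55.1 and 36.2 CPM in liver. Among 7 inhibitors of AKT, Trib3, a pseudokinase that binds AKT, was at 2.94 and 1.72 CPM against 19.9 and 20.2 CPM and rose by 3.19 (adjusted p = 0.0226). Trib1, the largest change of this role in liver, was at -0.45 there (adjusted p = 0.487).

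Of 16 AKT substrates and mTORC1 genes, 1 rose and 1 fell in eWAT. Eif4ebp1, a repressor of cap-dependent translation that mTORC1 switches off, was at 41.3 and 39.0 CPM against 355 and 335 CPM and rose by 3.19 (standard error 0.34, adjusted p = 0.0170). Tbc1d1, which restrains glucose transporter traffic until AKT phosphorylates it, was at 56.9 and 69.2 CPM against 16.8 and 13.4 CPM and fell by 1.97 on the log2 scale (adjusted p = 0.0299). In liver Rps6kb1, the S6 kinase gene, was at 6.64 and 6.35 CPM against 9.44 and 14.3 CPM (0.88, adjusted p = 0.247).

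Of 17 target genes of FoxO factors, 4 rose and 1 fell in eWAT. Pck1, for the enzyme of gluconeogenesis that adipocytes use to make glycerol, was at 45.4 and 117 CPM against 1585 and 2260 CPM and rose by 4.63 (adjusted p = 0.0260). Pnpla2, for the lipase that starts triglyceride breakdown, rose by 3.63 from 210 and 260 CPM to 3236 and 2195 CPM (adjusted p = 0.0269). Pdk4, which spares glucose by inhibiting pyruvate dehydrogenase, rose by 3.76 (adjusted p = 0.0343) and Txnip, a brake on glucose uptake, by 2.53 (adjusted p = 0.0307). Pck1, Pnpla2 and Pdk4 are also abundant in adipocytes, and 12 of 12 adipocyte markers were higher in Crtc1-/- eWAT, 8 of them called, with a median of 3.77. Fbxo32, a ubiquitin ligase gene, fell by 1.78 on the log2 scale (adjusted p = 0.0418). In liver G6pc, for the last step of glucose release, was at 61.8 and 327 CPM against 52.6 and 95.9 CPM, with replicates of Crtc1+/+ farther apart than the genotypes, and Pck1 at 592 and 3171 against 2093 and 1579 CPM.

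**Figure D5:**
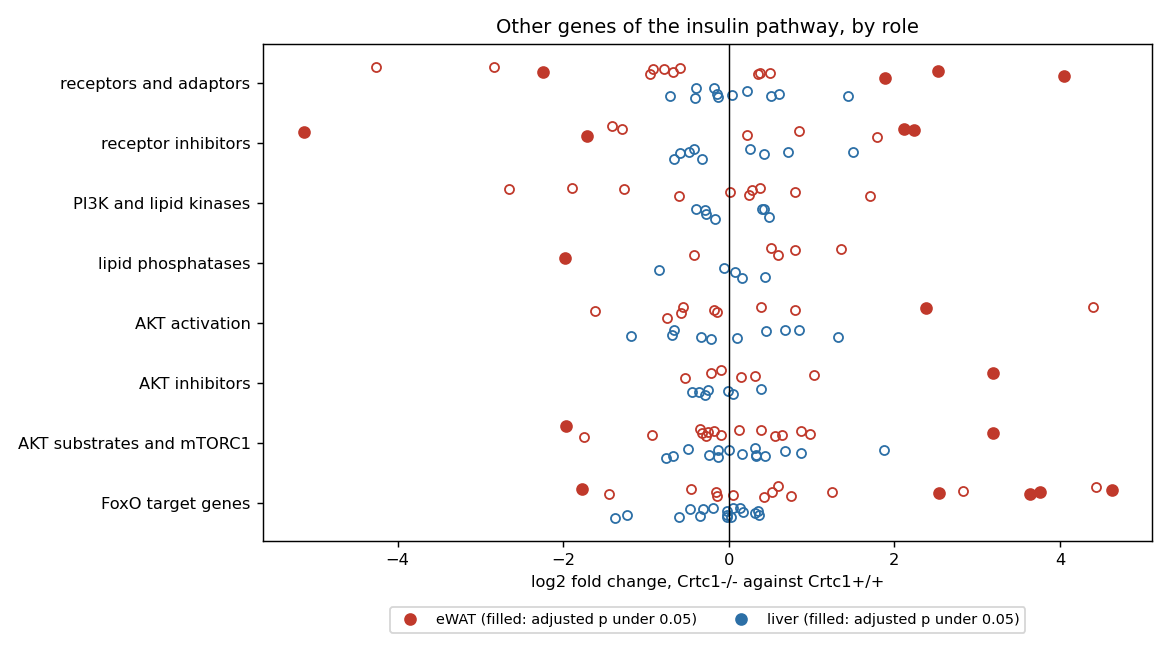
Log2 fold change of 89 other insulin pathway genes by role, labelled Crtc1-/- against labelled Crtc1+/+, in eWAT (red, upper row of each role) and liver (blue, lower row), with filled points for an adjusted p under 0.05. The 18 filled points are all in eWAT, 12 to the right of 0 and 6 to the left, and the values spread less in liver (-1.37 to 1.87) than in eWAT (-5.13 to 4.63).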

How the data were processed

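The authors deposited estimated counts per gene, not normalized, and FPKM, scaled by transcript length and library total. Sequencing was done at BGI. The submitters' processing notes name HISAT, Bowtie2 and GRCm38.p6, and the counting tool and annotation are not given in the sources used here. Between 5.44% and 9.98% of a library's counts were not whole, and counts were rounded.

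Genotypes were compared within each tissue, and tissues and the interaction in all 8 libraries, with edgeR 4.0.16 (filterByExpr, TMM, quasi-likelihood test, R 4.3.3) and Benjamini-Hochberg adjustment over all genes tested. Fold changes are log2, labelled Crtc1-/- against Crtc1+/+, and standard errors follow from the log2 value and its F statistic (value over root F). A call is an adjusted p under 0.05. The study's methods describe 2 mice per genotype from which both tissues were taken, and the labels do not say which liver and eWAT libraries share a mouse. The tissue and interaction fits took the 8 libraries as independent. With 2 libraries a group, the spread between libraries limits the comparisons, as does depth for Irs2 in liver, and SDs have n = 2.

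The 10 genes, the role lists and the marker lists were chosen with earlier results of these data known, and the length classes after seeing the data. Named were the 10 genes, Crtc1, each listed gene called in a tissue, the largest change of each role in each tissue at a mean log2 CPM of at least 1, the most similar profile for each gene, and up to 3 abundant markers. A listed gene that met this rule is not reported individually here. Profiles used a pseudocount of 0.5 CPM. Alternatives were DESeq2 1.42.0, limma 3.58.1 on quantile-normalized log2(FPKM + 1) and log2(FPKM + 0.1), upper-quartile and library-size scaling, no filter, a mean count of at least 50, removal of marker genes, a joint fit of all 8 libraries, a block for the replicate number, and each library left out. The code was tested on simulated data. Upstream sequences are from RefSeq (GRCm38.p6), and protein sequences were not used here. Plots used matplotlib 3.10.9.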

Additional observations from a re-analysis of the deposited data

Results flagged for a closer look

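The effect of the labelled genotype differed between eWAT and liver, by the interaction test in edgeR's quasi-likelihood fit of all 8 libraries (adjusted p under 0.05), for Akt2 and 12 of the 89 other pathway genes, beside 6.94% of all genes tested. The difference, eWAT effect minus liver effect on the log2 scale, was 2.86 for Akt2 (adjusted p = 0.0177), which was higher in both Crtc1-/- libraries in eWAT and lower in both in liver. Among adaptors and receptors it was 3.62 for Irs3 (adjusted p = 0.0226) and -3.76 for Igf1r (adjusted p = 0.0319), and among receptor inhibitors -4.5 for Enpp1 (adjusted p = 0.0209). For the lipid phosphatase genes it was -2.16 for Inpp5d (adjusted p = 0.0340) and 1.54 for Inppl1 (adjusted p = 0.0440). It was 2.99 for Sgk1 (adjusted p = 0.0308), -1.82 for Tbc1d1 (adjusted p = 0.0298) and 2.78 for Eif4ebp1 (adjusted p = 0.0127). For the FoxO targets Txnip and Pnpla2 it was 2.5 (adjusted p = 0.0437) and 3.73 (adjusted p = 0.0199). Foxo4 (1.39, adjusted p = 0.0455) and Cited2 (1.87, adjusted p = 0.0354), named after their values were seen, were the other two. Scaling by library size moved the median difference over all genes from -0.21 to -0.49. With that scaling 4 of the 89 genes were called, and with the replicate number as a block 5. Results with a library left out are given below.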

How the results depend on the processing

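Limits are 2 libraries a group, eWAT libraries that differ in epididymis and hepatocyte transcripts, and 12 to 16 counts for Irs2 in liver. The numbers of calls below are at an adjusted p under 0.05. In eWAT, 2 of the 10 genes were called, against 4 with DESeq2, 1 with upper-quartile scaling, library-size scaling or limma on log2(FPKM + 1), and 0 to 2 with a library left out. At the study's threshold 3 passed, against 1 with library-size scaling and 0 to 2 with a library left out. Of the 89 other pathway genes 18 were called, against 28 with DESeq2 and 0 to 22 with a library left out. Over all genes 1875 were called in eWAT by edgeR, 4620 by DESeq2, 3861 in the fit of all 8 libraries, 3073 without Crtc1-/- replicate 1 and 0 without either Crtc1+/+ library, where 3436 and 2565 genes had an unadjusted p under 0.05. In liver 10 genes were called, against 311 with DESeq2, 301 with no filter, 0 with limma, 0 with all 8 libraries in 1 fit and 1 to 1507 with a library left out, and the other pathway genes gave 0, against 2 with DESeq2 or no filter and 0 to 7 with a library left out.

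The labels do not say that a replicate number marks a shared mouse, and the data do not establish it. The correlation of same-numbered deviations across 15587 genes was 0.00862 between genotypes in eWAT, 0.0517 in liver, and 0.153 and 0.0343 between tissues in Crtc1+/+ and Crtc1-/-. With the number as a block, 0 of the 10 genes, 0 of the 89 and 0 of all genes were called in eWAT, where 5418 had an unadjusted p under 0.05, 82 of all genes in liver, and 926 of all genes and 5 of the 89 for the interaction. With the block the eWAT calls of Akt2 (2.47, adjusted p = 0.0559) and Foxo1 (1.47, adjusted p = 0.0632) were lost, and Akt2 kept its call for the interaction.

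For the interaction 1 of the 10 and 12 of the 89 genes were called by edgeR, against 2 of the 10 (also 2 at the study's threshold) with limma on log2(FPKM + 0.1), 4 of the 89 with library-size scaling, and 0 to 1 and 0 to 20 with a library left out (1 to 2 of the 10 at the study's threshold). Between tissues in Crtc1+/+, 4 of the 10 were called and 3 passed the study's threshold, against 8 and 6 with library-size scaling and 1 and 1 with either limma fit, and 45 of the 89, against 72. With a library left out these were 0 to 4, 0 to 4 and 27 to 47. In Crtc1-/-, 2, 2 and 33 became 8, 6 and 55 with library-size scaling and 0 to 3, 0 to 2 and 14 to 37 with a library left out. By FPKM the highest group was eWAT Crtc1+/+ for 4 genes, liver Crtc1+/+ for 0 and liver Crtc1-/- for 0.

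Of the fold changes of the 10 genes, 19 turned in sign under settings other than leaving out a library, 305 kept their direction and side of the threshold, 12 lost a call and 6 gained one. In eWAT, Insr became -0.121 with upper-quartile and -0.265 with library-size scaling, and Pik3ca 0.118 and 0.173 with limma at pseudocounts of 1 and 0.1. In liver, Irs2 became -0.006 and -0.026 with the same 2 limma fits, Pik3r1 -0.015 with no filter and -0.006 with all 8 libraries, Akt1 0.013 with upper-quartile scaling, and Foxo3 0.015 with upper-quartile scaling, 0.007 with a mean count of at least 50, 0.016 with limma at 0.1 and 0.040 with the block. For the interaction, library-size scaling gave -0.075 for Irs2 and -0.079 for Pde3b. Between tissues in Crtc1+/+ it gave 0.201 for Irs1 and 0.095 for Akt2, and limma gave -0.024 and -0.094 for Pik3ca. The cause was not tested.

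With a library left out, eWAT values ranged from -0.450 to 0.597 for Insr, -0.077 to 1.517 for Irs2, -0.615 to 0.287 for Pik3ca and -1.174 to 6.493 for Sgk2. Liver values ranged from -0.162 to 0.589 for Irs1, -0.234 to 0.257 for Pik3r1, -0.197 to 0.032 for Akt1, -0.537 to 0.614 for Foxo3, -0.260 to 0.995 for Sh2b2 and -2.132 to 0.260 for G6pc. Interaction values ranged from -0.437 to 1.039 for Irs2, -0.322 to 1.068 for Pde3b and -1.148 to 0.011 for Foxo3.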
